A study of Mus musculus with 9 samples.

Results

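The genes described here build and lengthen the actin core of stereocilia. They are 10 genes chosen by symbol, 3 unconventional myosins (Myo15, Myo3a and Myo3b) and 7 actin crosslinkers, cappers and related proteins (Espn, Espnl, Eps8, Eps8l2, Fscn2, Pls1 and Xirp2). By Ensembl identifier, 9 were found among the 1137 genes of the HOM libraries, where Eps8 was not listed and so was not analysed, and all 10 among the 51912 genes of the HET and WT libraries. Stereocilia are the actin-filled protrusions that form the hair bundle, the mechanosensitive organelle on top of each hair cell of the inner ear. Their height is set in the neonatal cochlea, as myosin motors carry elongation factors to the tips and crosslinkers bind the parallel filaments together. Mutations in most of these genes shorten stereocilia or make them degenerate, and several cause deafness in people or mice.

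RNA was sequenced from mouse cochleae at postnatal day 3, in 3 libraries for each of 3 groups. Pou4f3(Δ/Δ) cochleae are called HOM, Pou4f3(Δ/+) cochleae HET and Pou4f3(+/+) cochleae WT. Pou4f3 encodes a POU-domain transcription factor that hair cells need to mature and survive, and Δ is its mutant allele, whose extent is not stated in the labels; nor are strain, sex or the number of animals per library. Groups follow the sample titles; the genotype field names another genotype in each of the 9 samples, and every direction below rests on the titles. Nothing in the labels says that the libraries came from separate animals, so p-values measure the spread between libraries, which may be technical.

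The unit is FPKM, which divides fragments by exon length and depth, so levels can be compared between genes. Depth recovered from the FPKM steps was 14319000 to 17405000 fragments per library. Each of the 1137 genes listed in HOM had 3 HOM libraries outside the range of the 3 WT libraries. The HOM list thus holds only genes with such a gap, and every HOM value of a listed gene is a description and not independent evidence of that difference. Pou4f3 itself was at 5.92, 1.36 and 9.39 FPKM in HOM, 24.21, 21.74 and 25.56 FPKM in HET, and 25.02, 24.49 and 26.97 FPKM in WT. It was lowest in the libraries titled HOM; as the extent of Δ is not stated, these levels may include transcripts of the mutant allele. Among HET and WT libraries, HET replicate 1 and WT replicate 3 lay apart from the other 4 on the largest axis of variance (58.1% of it). Another 16 hair cell markers, from outside the lists of stereocilia genes used here, were all detected in HET and WT. Their summed levels were 289 to 356 FPKM in HET and 294 to 383 FPKM in WT. The labelled tissue therefore carried hair cell RNA in these 6 libraries. The highest sum in each group was that of the library that lay apart, but the markers differed in this. Calb2 was highest there, at 53.66 FPKM in HET replicate 1 and 71.15 FPKM in WT replicate 3. Otof was the lowest of HET in HET replicate 1, at 30.56 FPKM, but the highest of WT in WT replicate 3, at 35.34 FPKM. The summed level of 8 markers of cochlear neurons was also highest in these libraries, at 178 FPKM in HET replicate 1 and 183 FPKM in WT replicate 3. The part of either cell type in these sums was not tested.

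The promoters of 9 members (11 start sites, since Espn has 3) were found in the RefSeq promoter table of GRCm38.p6; Eps8 had no entry. The 250 bases before the start site were searched on both strands for ATTAAT and TAATTA, AT-rich letters of the kind that POU and other homeodomain factors bind, and for the consensus of MEF2, a factor of muscle gene promoters. The motifs were chosen after the promoters had been read. Shown 5′ to 3′, with matches in capitals, are the promoters of Myo15 and Espnl, which kept least of their WT level in HOM, and the 3 with a match.
Myo15, chr11:60469089-60469338 (+ strand): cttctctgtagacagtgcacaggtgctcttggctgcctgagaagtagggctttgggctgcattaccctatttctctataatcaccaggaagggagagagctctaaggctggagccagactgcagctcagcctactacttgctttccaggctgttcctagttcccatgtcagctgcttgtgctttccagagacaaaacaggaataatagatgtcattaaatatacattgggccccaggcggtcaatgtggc
Espnl, chr1:91321825-91322074 (+ strand): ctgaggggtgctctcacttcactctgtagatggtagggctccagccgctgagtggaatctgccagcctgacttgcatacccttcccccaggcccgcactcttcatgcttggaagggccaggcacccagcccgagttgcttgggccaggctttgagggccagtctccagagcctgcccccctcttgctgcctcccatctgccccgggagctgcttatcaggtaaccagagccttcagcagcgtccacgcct
Xirp2, chr2:67445752-67446001 (+ strand): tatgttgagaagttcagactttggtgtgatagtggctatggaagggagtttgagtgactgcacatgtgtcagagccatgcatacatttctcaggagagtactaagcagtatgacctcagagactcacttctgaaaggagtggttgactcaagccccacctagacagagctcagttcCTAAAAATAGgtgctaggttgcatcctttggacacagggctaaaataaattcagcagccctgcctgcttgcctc
Pls1, chr9:95845280-95845529 (- strand): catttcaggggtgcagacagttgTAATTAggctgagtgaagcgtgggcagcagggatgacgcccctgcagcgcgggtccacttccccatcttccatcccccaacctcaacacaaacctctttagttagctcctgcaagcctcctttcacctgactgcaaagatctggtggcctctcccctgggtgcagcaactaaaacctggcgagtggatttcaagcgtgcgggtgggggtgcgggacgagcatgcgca
Espn, chr4:152136326-152136575 (- strand): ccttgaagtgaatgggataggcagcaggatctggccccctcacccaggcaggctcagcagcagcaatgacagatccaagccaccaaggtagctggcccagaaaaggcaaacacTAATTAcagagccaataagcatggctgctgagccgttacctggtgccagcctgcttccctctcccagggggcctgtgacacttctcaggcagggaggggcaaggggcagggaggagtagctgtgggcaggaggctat
No member promoter held ATTAAT (0 of 11), against 4.39% of 32851 promoters of that length. TAATTA was in 2 of the 11, those of Pls1 and of 1 Espn start site, against 4.84% of all, and the MEF2 consensus was in that of Xirp2 alone, against 1.69% of all. The Myo15 and Espnl promoters held no match. A match is a string of letters in this window and not a known site, and its absence says nothing of the factor.

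The genes spanned a wide range of levels, led in every group by Pls1. In HOM cochleae Pls1 was at 40.3 ± 1.27 FPKM (SD, n = 3 for this and the following values). Below it, Espn (3.74 ± 1.85 FPKM), Eps8l2 (3.24 ± 0.516 FPKM), Fscn2 (2.36 ± 1.55 FPKM) and Espnl (2.33 ± 1.55 FPKM) overlapped one another. Myo3b (0.920 ± 0.211 FPKM) lay above Myo15 (0.330 ± 0.0436 FPKM) in every library, whereas Myo3a (0.863 ± 0.652 FPKM) and Xirp2 (0.253 ± 0.165 FPKM) overlapped Myo15. In HET the order was Pls1 (44.8 ± 0.351 FPKM), Espnl (13.6 ± 1.94 FPKM), Fscn2 (7.20 ± 0.811 FPKM), Espn (6.55 ± 0.976 FPKM) and Eps8l2 (5.79 ± 0.829 FPKM), each of the last 3 overlapping its neighbour, then Myo15 (3.66 ± 0.501 FPKM), Eps8 (3.52 ± 0.686 FPKM), Myo3b (3.41 ± 0.594 FPKM) and Myo3a (2.64 ± 0.497 FPKM), each but the last overlapping the next, and Xirp2 alone below them (1.28 ± 0.0751 FPKM). In WT cochleae Pls1 was at 44.6 ± 1.25 FPKM, then came Espnl at 15.7 ± 0.461 and Espn at 7.63 ± 0.820 FPKM. Fscn2 (6.41 ± 0.121 FPKM) and Eps8l2 (6.27 ± 0.0451 FPKM) followed, with WT libraries that overlapped each other. Myo15 (4.13 ± 1.02 FPKM), Eps8 (3.42 ± 0.540 FPKM) and Myo3b (3.13 ± 0.250 FPKM) also overlapped their neighbours in this order. Myo3a (2.12 ± 0.0833 FPKM) and Xirp2 (1.09 ± 0.0751 FPKM) were the lowest, each apart from the gene above it.

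**Figure D1:**
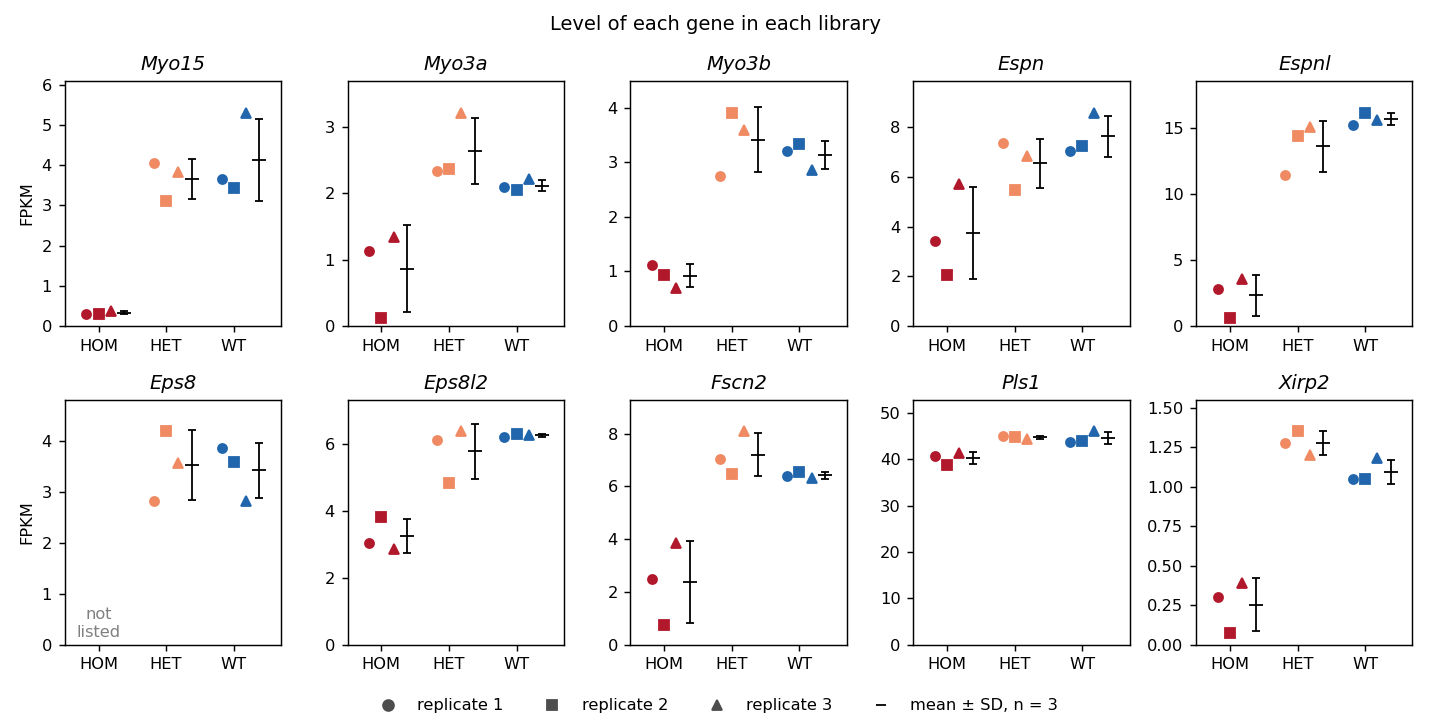
FPKM of the 10 genes in each of the 9 libraries, by group (HOM, HET, WT), with the mean and SD of each group beside its points (n = 3); each panel has its own axis from 0. Myo15 and Espnl are low in all 3 HOM libraries, Pls1 lies at 38.89 to 41.30 FPKM in HOM against 43.75 to 46.04 FPKM in WT, and Eps8 has no HOM value.

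The HOM comparisons ask how the actin machinery differs in cochleae whose Pou4f3 alleles are both mutant. All 9 listed members fell in HOM against WT, though Pls1 turned positive under other scalings, with changes on the log2(FPKM + 1) scale between -2.46 and -0.14 and a median of -0.93, beside a median of -0.22 over the 1109 listed genes tested. Of those 1109 genes, 65.4% were called lower (limma, Benjamini-Hochberg adjusted p under 0.05). That share was 27.0% under median-ratio scaling and 24.0% under upper-quartile scaling of the listed genes. Relative to WT the members kept between 7.98% (Myo15) and 90.4% (Pls1) of their level, with a median of 36.8%. Among the 13 hair cell markers listed in HOM, kept levels ranged from 2.20% (Otof, a synaptic calcium sensor) to 77.01% (Anxa4, an annexin). Their median was 21.8%. Markers of other cell types listed in HOM also differed from WT. Of 12 supporting cell markers 4 were listed, Epyc at 136.6%, Gjb6 at 123% and Gjb2 at 121% of the WT mean, and Jag1 at 75.5%. Of 7 erythroid markers, Hbb-bs was at 43.5% and Alas2 at 60.9%, and of 6 macrophage markers, Cd68 was at 127.8%. Of 8 markers of cochlear neurons 1 was listed, Gata3 at 111.6%. Gata3 stayed at 85.38 to 87.00 FPKM across WT libraries, where Tubb3 ran from 6.67 to 21.66 FPKM, so its level need not follow that of neurons. The part of these cell types in the values of the members was not tested. In bulk tissue, fewer hair cells and less RNA per hair cell cannot be told apart.

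Myo15 encodes the motor that brings whirlin and Eps8 to stereocilia tips, where the complex drives elongation; mouse mutants have very short stereocilia. The gene (ENSMUSG00000042678) lies on chromosome 11 from 60469339 to 60528369 (GRCm38, + strand, 66 merged exons). Its level was 0.31, 0.30 and 0.38 FPKM in HOM, 4.06, 3.10 and 3.83 FPKM in HET, and 3.66, 3.44 and 5.30 FPKM in WT. The 3 HOM libraries lay close together and far below both other groups. The change was -1.93 against WT (SE 0.14, limma adjusted p = 0.000274) and -1.80 against HET (SE 0.10, limma adjusted p = 0.000136). Myo15 kept 7.98% ± 1.05 of the WT mean, the lowest share among the 9. Its SD was also the smallest of the 9 in percentage points, but relative to its level Pls1 varied less (90.4% ± 2.85).

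Myo3a and Myo3b encode class III myosins, motors with a kinase domain that carry espins to the tips. Myo3a (chromosome 2, 22227503 to 22618252, + strand) was at 1.13, 0.12 and 1.34 FPKM in HOM, 2.34, 2.36 and 3.21 FPKM in HET, and 2.09, 2.05 and 2.21 FPKM in WT. HOM replicate 2, with 15 recovered fragments, was far below the other HOM libraries, which had 129 and 168. The change against WT was -0.81 (SE 0.27, limma adjusted p = 0.0292), but -0.48 without HOM replicate 2, and the call was lost without any 1 of the WT libraries (adjusted p 0.0700 to 0.0736) and under both scalings (0.0731 and 0.0843). Against HET it was -1.03 (SE 0.29, limma adjusted p = 0.0302), and the call was lost without any 1 of the HET libraries (0.0512 to 0.0934).

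Myo3b (chromosome 2, 70039126 to 70429198, + strand) was at 1.12, 0.94 and 0.70 FPKM in HOM, 2.75, 3.90 and 3.58 FPKM in HET, and 3.21, 3.33 and 2.85 FPKM in WT. Here HOM replicate 3 was the lowest HOM library. Its changes of -1.11 against WT (SE 0.10, limma adjusted p = 0.000655) and -1.20 against HET (SE 0.14, limma adjusted p = 0.00173) kept their calls without any 1 library. Exons of Gm13631 on the same strand overlap 70 bp of its 7039 bp. Within a library, Myo3a minus Myo3b on the log2(FPKM + 1) scale was -0.11 ± 0.64 in HOM and -0.41 ± 0.13 in WT (SD, n = 3 each; two-sided exact permutation p = 0.6), a difference within the spread between libraries. As a log2 ratio with no pseudocount, chosen after the data were seen, it was -0.67 ± 2.04 in HOM and -0.56 ± 0.17 in WT (SD, n = 3 each), so the direction turns round with the pseudocount.

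Espn encodes espin, a potent actin bundler missing in the jerker mouse, and Espnl encodes espin-like, a cargo of the class III myosins. Espn (chromosome 4, 152120331 to 152152371, - strand) was at 3.43, 2.06 and 5.73 FPKM in HOM, 7.35, 5.46 and 6.83 FPKM in HET, and 7.06, 7.26 and 8.57 FPKM in WT. HOM replicate 3 was above the lowest HET library, so HOM and HET overlapped, unlike in any other listed member. The change was -0.93 against WT (SE 0.27, limma adjusted p = 0.0205). That call was lost without HOM replicate 1 or any 1 of the WT libraries (0.0502 to 0.0592) and under both scalings (0.0506 and 0.0584). Against HET it was -0.74 (SE 0.28, limma adjusted p = 0.0729) and not called, though called without HOM replicate 3 (-1.03, 0.0136) and in a fit of all 3 groups (0.0347), and -0.46 without HOM replicate 2.

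Espnl (chromosome 1, 91322075 to 91348306, + strand) was at 2.80, 0.60 and 3.59 FPKM in HOM, 11.43, 14.40 and 15.07 FPKM in HET, and 15.22, 16.14 and 15.64 FPKM in WT. All HOM libraries were far below the other groups, and HOM replicate 2 was the lowest again. The change of -2.46 against WT (SE 0.38, limma adjusted p = 0.00396) was the largest of the 9, as was that of -2.26 against HET (SE 0.39, limma adjusted p = 0.00694), on a scale that compresses the changes of lower genes. Espnl kept 14.9% ± 9.89 of the WT level and Espn 49.02% ± 24.3. Within a library, Espn minus Espnl on the log2(FPKM + 1) scale was 0.57 ± 0.36 in HOM and -0.95 ± 0.14 in WT (SD, n = 3 each), a difference of 1.52 (two-sided exact permutation p = 0.1, the smallest that 3 against 3 libraries allow; 0.25 after Benjamini-Hochberg adjustment over 10 such tests). As a log2 ratio with no pseudocount it was 0.92 ± 0.77 in HOM and -1.04 ± 0.15 in WT (SD, n = 3 each). On both scales it was positive in 3 of 3 HOM libraries and negative in 3 of 3 HET and 3 of 3 WT libraries.

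Eps8 caps and bundles actin filaments at stereocilia tips, and Eps8l2 is a related protein that helps to maintain stereocilia. Eps8 (chromosome 6, 137477245 to 137654876, - strand) was at 2.81, 4.18 and 3.56 FPKM in HET, and 3.86, 3.59 and 2.82 FPKM in WT. Its lowest values came from HET replicate 1 and WT replicate 3, the libraries that lay apart. Eps8l2 (chromosome 7, 141338880 to 141363020, + strand) was at 3.04, 3.83 and 2.86 FPKM in HOM, 6.14, 4.84 and 6.38 FPKM in HET, and 6.22, 6.31 and 6.27 FPKM in WT. HOM replicate 2 was here the highest HOM library, below every HET and WT library. The change was -0.78 against WT (SE 0.09, limma adjusted p = 0.00145) and -0.68 against HET (SE 0.13, limma adjusted p = 0.0103), with 51.8% ± 8.23 of the WT level kept. Exons of B230206H07Rik, a noncoding gene on the opposite strand, overlap 1729 of its 5377 exonic bp, and strand-specific counting is not stated, so the level of Eps8l2 is uncertain by reads of that gene. B230206H07Rik was at 0.87 to 1.71 FPKM in HET and 1.36 to 1.94 FPKM in WT and was not listed in HOM.

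Fscn2 and Pls1 encode crosslinkers that hold neighbouring filaments of the core together, fascin 2 and plastin 1. Fscn2 (chromosome 11, 120361534 to 120368168, + strand) was at 2.48, 0.75 and 3.85 FPKM in HOM, 7.05, 6.48 and 8.08 FPKM in HET, and 6.40, 6.54 and 6.30 FPKM in WT. HOM lay below both groups, with replicate 2 lowest. The change was -1.26 against WT (SE 0.35, limma adjusted p = 0.0184; lost without WT replicate 1 or 2, at 0.0505 and 0.0511) and -1.40 against HET (SE 0.35, limma adjusted p = 0.0227; lost without HET replicate 2 or 3, at 0.0596 and 0.0731). Fscn2 kept 36.8% ± 24.2 of the WT level.

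Pls1 (chromosome 9, 95752642 to 95845311, - strand) was at 40.79, 38.89 and 41.30 FPKM in HOM, 45.11, 44.80 and 44.41 FPKM in HET, and 43.75, 44.03 and 46.04 FPKM in WT. The groups were close, with HOM just below the others, and Pls1 kept 90.4% ± 2.85 of the WT level. The change of -0.14 against WT (SE 0.04, limma adjusted p = 0.0188) was not called without HOM replicate 2 (0.0508). It became +0.07 (adjusted p = 0.112) under median-ratio scaling and +0.11 (adjusted p = 0.0388) under upper-quartile scaling of the listed genes, so its direction depends on the scaling. The change of -0.15 against HET (SE 0.04, limma adjusted p = 0.0303) was likewise +0.02 and +0.09 under the scalings, and its call was lost without HOM replicate 1 or 2 or HET replicate 2 or 3 (0.0769 to 0.0947). These scalings moved the median change of all listed genes against WT from -0.22 to -0.04 and -0.01, and all other listed members stayed lower under both.

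Xirp2 encodes a large protein with actin-binding Xin repeats, found in muscle and in the stereocilia and cuticular plate of hair cells. It (chromosome 2, 67446002 to 67526614, + strand) was at 0.30, 0.07 and 0.39 FPKM in HOM, 1.28, 1.35 and 1.20 FPKM in HET, and 1.05, 1.05 and 1.18 FPKM in WT. The 3 groups did not overlap, and HET was above WT. The change was -0.75 against WT (SE 0.11, limma adjusted p = 0.00336) and -0.87 against HET (SE 0.11, limma adjusted p = 0.00301), which understate a low gene: it kept 23.2% ± 15.1 of the WT level. HOM replicate 2 had 13 recovered fragments and the other HOM libraries 51 and 74. Of 16 skeletal muscle markers, 0 were listed in HOM. In HET and WT, Casq1 (1.57 to 4.18 FPKM in HET, 1.59 to 3.49 FPKM in WT) and Mylpf (1.14 to 1.33 FPKM in HET, 0.89 to 1.62 FPKM in WT) reached the level of Xirp2. Tnnt3 and Actn3 lay at 0.66 to 0.85 FPKM in HET and 0.42 to 0.80 FPKM in WT, and all others but Mybpc1 at 0.38 FPKM or less, among them the titin gene Ttn at 0.01 FPKM in HET and 0.01 to 0.02 FPKM in WT. The list's summed level of 48.3 to 73.7 FPKM in HET and 48.6 to 65.02 FPKM in WT came mostly from Mybpc1, a myosin-binding protein gene, at 42.81 to 66.20 FPKM in HET and 43.75 to 58.85 FPKM in WT. Their part in the level of Xirp2 was not tested. Exons of the antisense gene Gm13601 overlap 168 of the 11979 exonic bp of Xirp2.

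**Figure D2:**
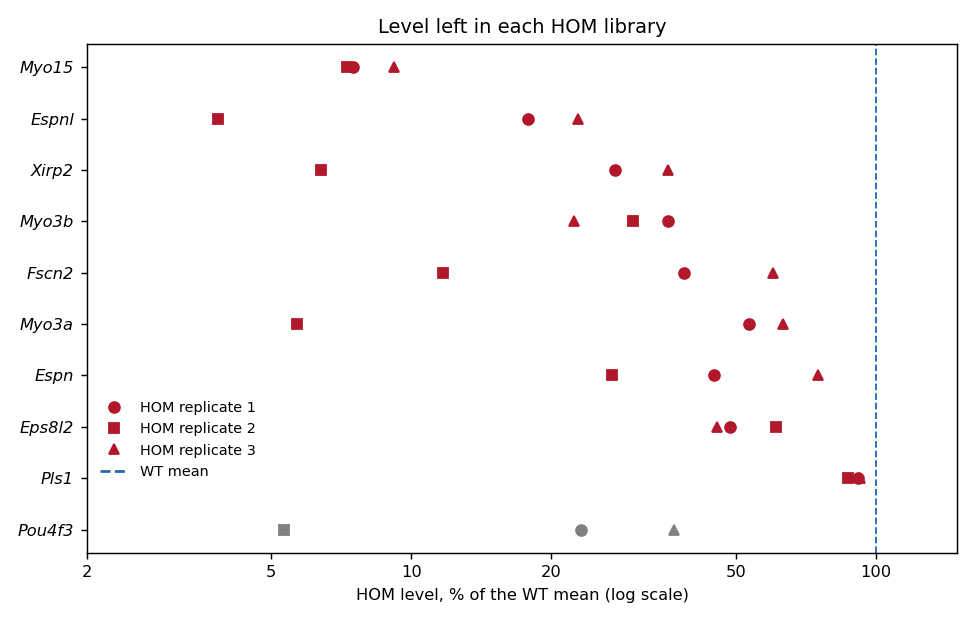
Level of the 9 listed genes and of Pou4f3 (grey) in each HOM library as a percent of the WT mean, on a log axis; the dashed line is the WT mean. Myo15 lies between 7.26% and 9.19% in all 3 libraries, whereas Myo3a lies at 5.67% in replicate 2 and at 53.4% and 63.3% in the others.

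The members differed in how they varied among the 3 HOM libraries. HOM replicate 2 was the lowest and replicate 3 the highest for 7 of the 9 listed members. The same order held for 11 of the 13 listed hair cell markers, Pou4f3 among them, and for 6 of the 12 listed other stereocilia genes. The 7 include Myo15 and Pls1, whose values in these 2 libraries were close. The summed level of all 1137 listed genes had the same order, at 14332 FPKM in replicate 2, 14414 FPKM in replicate 1 and 14819 FPKM in replicate 3. The share of all listed genes in this order is not given. The ratio of replicate 3 to replicate 2 was 6.90 for Pou4f3 (95% counting interval 5.11 to 9.45), 11.2 for Myo3a (6.40 to 19.8), 5.98 for Espnl (4.42 to 8.22), 5.57 for Xirp2 (3.04 to 10.8), 5.13 for Fscn2 (3.33 to 8.37) and 2.78 for Espn (2.41 to 3.22). In these 5 members replicate 2 was thus several-fold lower, by more than counting error. The ratio was 1.27 for Myo15 (0.891 to 1.82) and 1.06 for Pls1 (1.003 to 1.12), near 1. It was 0.745 for Myo3b (0.550 to 1.02), an interval that holds 1. For Eps8l2 it was 0.747 (0.629 to 0.887), so that its order was turned round by more than counting error. The intervals come from recovered fragments and cover counting error only. The 13 listed hair cell genes summed to 64.6, 38.05 and 101 FPKM in HOM replicates 1 to 3, and none was at 0 in all 3 libraries. The 4 listed of 12 supporting cell markers summed to 1257, 1379 and 1254 FPKM, highest in replicate 2; most of this was Epyc (952, 1050 and 963 FPKM), and Jag1 (65.21, 62.11 and 56.51 FPKM) was highest in replicate 1. The part of either cell type in the spread of the members was not tested.

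**Figure D3:**
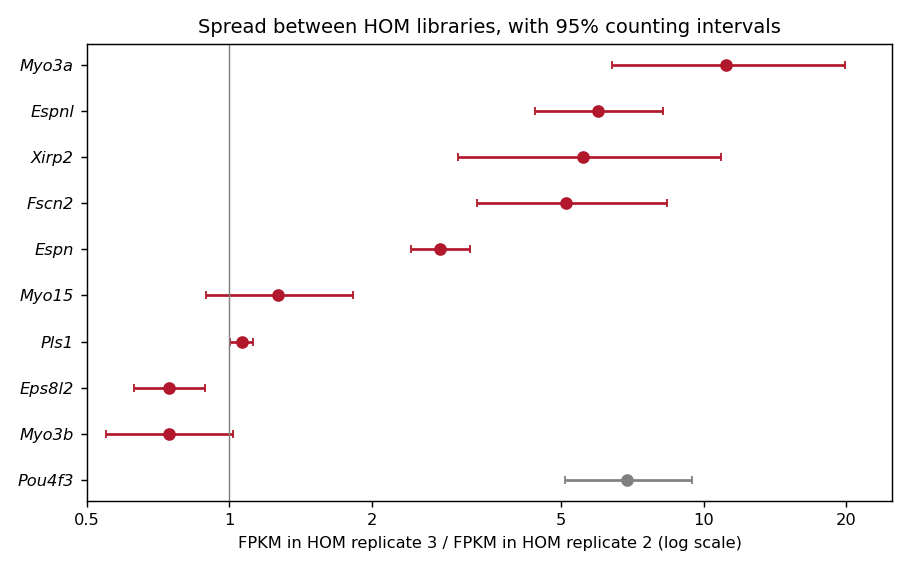
Ratio of FPKM in HOM replicate 3 to FPKM in HOM replicate 2 for the 9 listed genes and Pou4f3 (grey), on a log axis, with 95% exact binomial counting intervals; the vertical line marks 1. Myo3a, Espnl, Xirp2, Fscn2 and Espn lie at 2.78 to 11.2, and Myo15, Pls1, Eps8l2 and Myo3b at 0.745 to 1.27.

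Against HET, all 9 listed members had lower means in HOM, and 8 were called, all but Espn; Pls1, one of the 8, turned positive under both scalings. The same 8 had HOM libraries below all HET libraries. Of the 1090 listed genes tested, 485 were called in either direction, against 255 without HET replicate 2 and 242 without HET replicate 3. With all libraries 36.3% were called lower (24.1% with median-ratio scaling, 20% with upper-quartile scaling) and 46.2% had HOM below HET without overlap. The members' median change was -1.03, beside -0.16 over all listed genes tested. HOM libraries are shared with the comparison against WT, so the values stand side by side and do not add to each other.

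The comparison of HET with WT asks what loss of 1 normal allele does to these genes, and it is free of the HOM list. None of the 10 members (0) was called, nor was any of 15391 genes tested (0.0%, limma; 0 members and 266 genes in all at an unadjusted p under 0.05, 2447 without HET replicate 1 and WT replicate 3, with 0 called). The adjusted p was 0.9998 for each member. Changes lay between -0.20 (Espn) and +0.21 (Myo3a), with a median of 0.02, beside 0.001 over all genes; Espn was at -0.09 without HET replicate 2 and Myo3a at +0.10 without HET replicate 3. Of the members 6 were higher and 4 lower in HET. The sex of the libraries is not stated and may differ between HET and WT, and its part was not tested.

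Intervals limit what these libraries could show. The 95% interval of the change was -0.15 to 0.16 for Pls1 and -0.51 to 0.26 for Myo15, the narrowest and the widest of the 10. For Eps8 it was -0.34 to 0.39, for Myo3a -0.08 to 0.51, and for Espnl -0.46 to 0.07. A fall by 1 on the log2(FPKM + 1) scale, the size seen for several members in HOM, lay outside the interval of every member. This scale compresses the changes of lower genes, so a fall by 1 is a larger relative fall in FPKM for them. Of the 10 members, 3 had HET libraries that did not overlap WT: Myo3a (2.34 to 3.21 FPKM in HET, 2.05 to 2.21 FPKM in WT) and Xirp2 (1.20 to 1.35 FPKM in HET, 1.05 to 1.18 FPKM in WT) were higher, beside 2.82% of all genes tested, and Espnl (11.43 to 15.07 FPKM in HET, 15.22 to 16.14 FPKM in WT) was lower, beside 3.12%. Without HET replicate 1 the change of Espnl was -0.08.

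**Figure D4:**
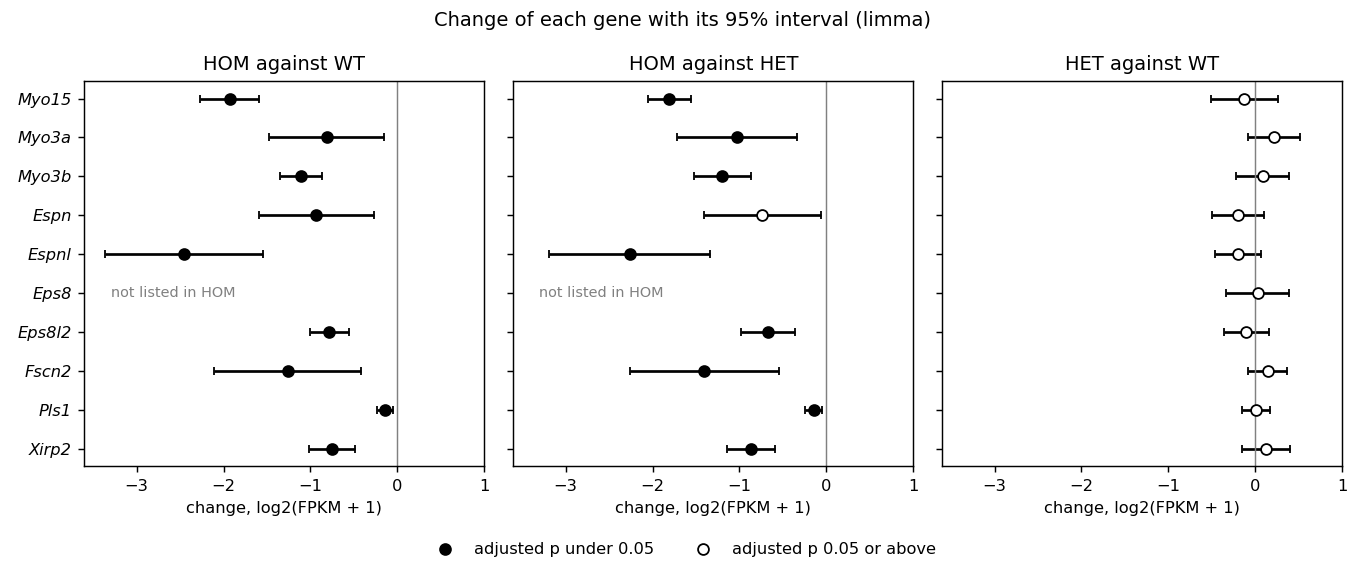
Change of each gene on the log2(FPKM + 1) scale with its 95% interval, for HOM against WT, HOM against HET and HET against WT; filled points passed an adjusted p of 0.05. HOM points lie at or below -0.14 and all HET points between -0.20 and +0.21.

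Paralogs of the members outside the 10 were set beside them in HET and WT, since none was listed in HOM. Fscn1, the broadly expressed fascin, was at 45.00, 36.05 and 38.20 FPKM in HET and 46.46, 46.63 and 52.50 FPKM in WT, several times the level of Fscn2. Within a library, Fscn2 minus Fscn1 on the log2(FPKM + 1) scale was -2.31 ± 0.20 in HET and -2.74 ± 0.12 in WT (SD, n = 3 each; two-sided exact permutation p = 0.1, the smallest possible, 0.25 after adjustment over the 10 tests). As a log2 ratio with no pseudocount it was -2.46 ± 0.22 in HET and -2.92 ± 0.12 in WT (SD, n = 3 each). Pls3, a plastin of many tissues, was at 24.44 to 25.51 FPKM in HET and 23.46 to 25.33 FPKM in WT, below Pls1 in every library. Lcp1, the leukocyte plastin, was at 1.30 to 1.37 FPKM in HET and 1.40 to 1.61 FPKM in WT. Xirp1, the muscle paralog of Xirp2, was at 0.01 FPKM in each HET library and 0.02 to 0.06 FPKM in WT. Eps8l1 was at 3.45 to 4.75 FPKM in HET and 3.57 to 4.41 FPKM in WT, near Eps8, whereas Eps8l3, Fscn3 and Myo15b stayed below 1 FPKM.

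Of 50 other genes of the stereocilia core, its tip complex and its regulators, 12 were listed in HOM. Listed too were 9 of the 10 members and 1137 of all 51912 genes. The HOM list holds only genes apart from WT, and members and gene lists were chosen with earlier results known. These shares are therefore descriptions and test nothing. Against WT 10 of the 12 fell and 2 rose (limma adjusted p under 0.05), with a median change of -0.66, beside 65.4% and 27.7% of the listed genes tested (27.0% and 31.9% under median-ratio scaling, 24.0% and 33.9% under upper-quartile scaling). The counts of the 12, here and against HET, come from the fits without scaling, and scaled counts of them are not given. Against HET 9 fell and 2 rose, with a median of -0.64, beside 36.3% and 8.17% of the listed genes (24.1% and 23.6% under median-ratio scaling, 20% and 30.3% under upper-quartile scaling); Wdr1 was not called (-0.04, limma adjusted p = 0.558). Most strongly lowered were the glutaredoxin-domain genes of bundle shape, Grxcr2 at 2.93, 0.88 and 4.88 FPKM in HOM, 38.66, 32.27 and 32.56 FPKM in HET and 50.30, 45.79 and 48.46 FPKM in WT (-3.81 against WT), and Grxcr1 (-2.99). Baiap2l2, which encodes a membrane-bending protein of the shorter rows, was at 0.46, 0.94 and 1.42 FPKM in HOM, 8.35, 3.96 and 6.04 FPKM in HET and 7.0, 5.31 and 8.70 FPKM in WT (-2.05), with HOM replicate 1 lowest. Elmod1, a GTPase-activating protein gene, changed by -1.26, the myosin gene Myo7a by -1.09, the twinfilin gene Twf2 by -0.79, Myo6 by -0.54 and Whrn, whose product whirlin is the cargo of Myo15, by -0.54.

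Whrn was at 3.68, 3.64 and 3.64 FPKM in HOM, 4.95, 4.83 and 5.27 FPKM in HET, and 6.27, 5.69 and 5.34 FPKM in WT. It kept 63.3% ± 0.40 of the WT level, against 7.98% ± 1.05 for its motor Myo15. Triobp, a rootlet gene, changed by -0.29 and the actin turnover gene Wdr1 by -0.10, which is less than the median of -0.22 over all listed genes. The direction of the Wdr1 change may depend on the scaling, as that of Pls1 did. Twf1 (+0.22) and Gsn (+0.18), which encode twinfilin 1 and gelsolin, rose. Other partners were not listed in HOM: Gpsm2 and Gnai3 of the tip complex, the actin genes Actb and Actg1 and the capping protein genes Capza1, Capza2 and Capzb had values in HET and WT only.

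In HET against WT, 45 of the 50 were tested and 0 were called (limma, adjusted p under 0.05; 2 at an unadjusted p under 0.05, 27 lower and 18 higher, median -0.03). The largest differences, none of which passed, were lower for Grxcr2 (-0.47), Fscn1 (-0.29) and Actb (-0.22), and higher for Gnai3 (+0.14), Myo6 (+0.13) and Myo7a (+0.11). Of the 45 tested, 6 had HET libraries below all WT libraries, Grxcr2 among them, beside 3.12% of all genes tested. In the other direction 1, Gnai3, had HET libraries above all WT libraries, beside 2.82%.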

How the data were processed

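The deposited values are FPKM computed by the authors per library, with 2 decimals, per the file headers and the values. The submitters' processing notes name DESeq2 and the mm8 build, and no aligner, counter or annotation is stated. Of 51912 gene identifiers, 51633 matched GENCODE M21 on GRCm38, the source of coordinates and exon lengths. Members, gene lists and motifs were chosen with earlier results of these data known.

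Each pair of groups was fitted separately by limma (version 3.58.1, R 4.3.3) to log2(FPKM + 1) with a mean-variance trend. Genes entered when 3 or more of the 6 libraries reached 1 FPKM, and HOM fits could hold only listed genes. P-values are two-sided, adjusted by Benjamini-Hochberg, with a threshold of 0.05; the test was checked on simulated data. Kept levels are HOM values as a percent of the WT mean. Differences of paralogs in log2(FPKM + 1) within a library were compared by exact permutation (scipy 1.17.1). Depth is the smallest fragment number that turned the low FPKM of short genes (exons of 600 bp or less) into whole fragments within 0.1. It did so for all of 16 to 20 values per HOM library and for 99.47% or more of 1887 or more values per HET or WT library; as depth was chosen for this, it is no independent check.

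The text names all 10 members, all 12 listed genes of the other stereocilia list, paralogs of members and the 3 largest changes each way in HET against WT. Alternatives were other pseudocounts, minima and scalings, no trend, a replicate block, 1 fit for all groups, and libraries left out.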

Additional observations from a re-analysis of the deposited data

How the results depend on the processing

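In HET against WT 0 genes were called with the settings of the report. The count was also 0 under other pseudocounts, scalings, the 0.3 FPKM minimum, no trend and the block. With no filter on low values 24 were called, 15 of them higher in HET. With a replicate left out 0 to 1 were called, Rpl29 without WT replicate 1 and Xist without WT replicate 2, named after their values were seen. The change of Xist, an RNA made in females, was then 6.036 (limma adjusted p = 0.0389). The sex of the libraries, not stated in the labels, may thus differ between HET and WT. Its part in this comparison was not tested. In HOM against WT the count was 1032 of the listed genes (307 higher and 725 lower), 653 under median-ratio scaling (354 and 299), 642 under upper-quartile scaling (376 and 266), and 689 to 864 with a replicate left out. In HOM against HET it was 485 (89 and 396), 520 (257 and 263) and 548 (330 and 218) under the scalings, 242 to 508 with a replicate left out (255 without HET replicate 2 and 242 without HET replicate 3) and 304 with the replicate block. Deviations of same-numbered HOM and HET libraries correlated at -0.32, 0.09 and -0.16, and those of HET and WT at -0.52, 0.29 and -0.47. These values took both signs. Those of same-numbered HOM and WT libraries correlated at 0.25, 0.09 and 0.28. Each HOM library correlated best with the WT library of its own number. WT replicate 2, however, correlated slightly better with HOM replicate 1 (0.105) than with HOM replicate 2 (0.094). Whether HOM and WT libraries of the same number form pairs was not tested. The block left 909 calls in HOM against WT and 0 in HET against WT. Under the block Espn was called in HOM against HET (adjusted p = 0.0499) and Pls1 was not (0.108); no other call of a member moved.

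The change of Pls1 turned positive in HOM against WT (0.074 with median-ratio scaling, 0.112 with upper-quartile scaling) and in HOM against HET (0.0172 and 0.0913). In HET against WT it was -0.0013 under upper-quartile scaling, and -0.0079 to 0.0281 with a replicate left out. With a replicate left out, the change in HET against WT also took both signs for Eps8 (-0.0783 to 0.143) and Myo15 (-0.222 to 0.0302). With a pseudocount of 0.1, Myo3a lost its calls against WT (adjusted p = 0.0680) and HET (0.0753), and with no trend Pls1 lost its call against HET (0.0643). With no pseudocount, the difference between Myo3a and Myo3b was -0.11 in HOM against WT and -0.30 in HOM against HET, where it had been 0.30 and 0.17. Levels under 0.5 FPKM in HOM rest on few fragments in Myo3a and Xirp2.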
